A study of Mus musculus with 4 samples.

Results

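The 9 genes studied here encode somatic and germ cell versions of 4 enzymes of glucose use, and they were followed through spermatogenesis in mouse testicular organoids (TOs) and testes by scRNA-seq. The members were given as a list of gene symbols, Gapdh, Gapdhs, Pgk1, Pgk2, Ldha, Ldhb, Ldhc, Pdha1 and Pdha2, and all 9 were found among the 32285 genes of the count matrices. The study compared unsorted cells of 2 TO libraries with unsorted cells of 2 testis libraries, with TOs and testes both given as 28 days old. In the study, TO days count time in culture, whereas the testes came from mice of 28 days. The groups were therefore not matched for age from birth. The mice were of the ICR strain according to the study's methods, and neither group carried a gene deletion. By the same source the TO culture medium held testosterone, follicle-stimulating hormone and antioxidants, and no such treatment is named for the mice whose testes were used, so culture and medium cannot be told apart. TOs were built from dissociated testis cells of pups of about 6 days and cultured, so a TO holds only cells that were present at that age or arose from them. The dissociation protocol in the sample labels names day 21 TOs instead of day 28, and this difference could not be settled. The labels do not say how many animals or organoids were pooled in a library, so the spread between the 2 libraries of a group may be partly technical.

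In glycolysis, glyceraldehyde-3-phosphate dehydrogenase (GAPDH) and phosphoglycerate kinase (PGK) carry out successive steps in the cytoplasm. Lactate dehydrogenase (LDH) then interconverts pyruvate and lactate, and the pyruvate dehydrogenase complex, whose E1 alpha subunit is encoded by Pdha1 and Pdha2, passes pyruvate into mitochondrial respiration. Most cells use Gapdh, Pgk1, Ldha, Ldhb and Pdha1. Male germ cells switch to Gapdhs, Pgk2, Ldhc and Pdha2 during meiosis and spermiogenesis, and sperm motility in mice depends on Gapdhs, Pgk2 and Ldhc. Spermatocytes rely on lactate supplied by Sertoli cells. Pgk1 and Pdha1 lie on the X chromosome, which is silenced in pachytene spermatocytes, whereas Pgk2 and Pdha2 are autosomal retrogenes.

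In GRCm38 (mm10, the build named in the submitters' processing notes), Pgk2 (ENSMUSG00000031233, chr17:40207015-40208640, minus strand) and Pdha2 (ENSMUSG00000047674, chr3:141210004-141212355, minus strand) were annotated with 1 exon each. Their parents Pgk1 (ENSMUSG00000062070, chrX:106187100-106203699, plus strand) and Pdha1 (ENSMUSG00000031299, chrX:160122209-160138413, minus strand) had 11 exons each. Ldhc (ENSMUSG00000030851, chr7:46861203-46878142) and Ldha (ENSMUSG00000063229, chr7:46841475-46855627) lay on the plus strand of the same chromosome, 5575 bp apart, with 8 exons each. Ldhb (ENSMUSG00000030246) lay at chr6:142490249-142507957, Gapdh (ENSMUSG00000057666) at chr6:125161715-125166467 and Gapdhs (ENSMUSG00000061099) at chr7:30729775-30743681, all on the minus strand.

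The bases just upstream of the 4 germ isozyme genes are shown. These genes rose along the germ line in the values that follow, and so did the somatic isozyme Ldha, whose sequence is not shown. The sequences come from the RefSeq promoter table of GRCm38.p6, read 5′ to 3′ on the strand of the gene and cut at the outermost GENCODE start. Capitals mark motifs that were chosen after the sequences had been read, and a match is a description of letters, not a binding site. The Ldhc window (chr7:46861013-46861202) held a GC box (GGGCGG). The Gapdhs window (chr7:30743682-30743931) held 2 matches to TGANNTCA, a variant of the cAMP response element. The Pgk2 window (chr17:40208641-40208859) held 2 CCAAT boxes, with a match to TGANNTCA past its end, 27 bases before the RefSeq start, and the Pdha2 window (chr3:141212356-141212605) held a TATA box (TATAAA).
Ldhc: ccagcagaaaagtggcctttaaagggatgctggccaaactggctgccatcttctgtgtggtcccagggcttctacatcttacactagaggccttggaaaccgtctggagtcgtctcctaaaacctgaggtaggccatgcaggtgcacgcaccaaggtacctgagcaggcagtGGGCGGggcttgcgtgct
Gapdhs: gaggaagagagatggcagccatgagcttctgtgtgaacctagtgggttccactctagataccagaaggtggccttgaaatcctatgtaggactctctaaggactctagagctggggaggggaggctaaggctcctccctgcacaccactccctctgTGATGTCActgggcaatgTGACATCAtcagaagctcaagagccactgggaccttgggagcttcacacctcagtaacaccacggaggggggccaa
Pgk2: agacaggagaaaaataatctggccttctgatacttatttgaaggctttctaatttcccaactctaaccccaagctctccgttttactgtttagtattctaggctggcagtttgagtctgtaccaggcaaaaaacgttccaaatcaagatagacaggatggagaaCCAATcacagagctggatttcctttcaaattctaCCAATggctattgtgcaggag
Pdha2: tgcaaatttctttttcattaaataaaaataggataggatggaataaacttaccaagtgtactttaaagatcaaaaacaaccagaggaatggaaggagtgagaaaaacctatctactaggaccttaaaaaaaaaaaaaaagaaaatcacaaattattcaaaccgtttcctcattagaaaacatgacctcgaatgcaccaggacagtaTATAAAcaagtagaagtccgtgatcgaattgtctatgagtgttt

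Both strands were searched in the 250 bases before each RefSeq start. TGANNTCA was found in 11.9% of 32851 promoter windows of that length, CCAAT in 33.8%, GGGCGG in 32.7% and TATAAA in 12.4%. The G and C content of the printed windows was 56.8% for Ldhc, 54.8% for Gapdhs, 41.1% for Pgk2 and 31.6% for Pdha2.

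Libraries held 11826 to 14643 barcodes with 74988295 to 119966959 UMIs, and 8713 to 9867 cells per library passed the study's filters of 1000 to 5000 genes, no more than 20000 UMIs and a mitochondrial share up to 10%. The minimum is that of the study's methods, and its supplement gives a lower one, which was not tried. Pairs of libraries shared 30 to 55 barcodes. The 2 TO libraries held 992 and 704 germ cells and the 2 testis libraries 7194 and 7954, in the order of replicates 1 and 2 that is kept for all pairs of values. They were clustered without the 9 members and the X-linked genes and staged by markers. Up to round spermatids every measured stage marker had a UMI in each sum, except Pou5f2 in pachytene spermatocytes of TO replicate 2. Summed marker levels were lower in TOs than testes in diplotene (718 and 1058 against 1663 and 1793 CPM) and round cells (2297 and 2559 against 3496 and 3588 CPM). They were higher in TOs in differentiating spermatogonia (1460 and 1537 against 995 and 981 CPM) and overlapped at the other stages. TO cells named endothelial had no UMI of the endothelial marker Pecam1 in either library, so that name is uncertain in TOs. The somatic types reported are Sertoli cells, Leydig cells, macrophages, endothelial cells and stromal cells. A somatic cluster led by Acta2 and Myh11, with 2190 and 1565 TO cells, stayed unnamed and is not among them. Neither is an unnamed cluster led by Tagln and Rgs5, with 239 and 299 TO cells. The 4 and 7 TO cells that fell in the elongating spermatid clusters had no UMI of Prm1, Prm2, Tnp1, Tnp2, Oaz3 or Odf1, which goes against that name, and they were not tested. TO spermatocytes and spermatids were few, with 55 and 10 pachytene, 36 and 20 diplotene and dividing, and 12 and 16 round spermatid cells, against 250 and 337, 884 and 1190, and 3098 and 2073 in testes.

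Because the upper limits on genes and UMIs removed large cells, the main levels and tests of the germ isozymes and their somatic partners at these stages are given also with no upper limits. Ldhb, single cells, the X-linked share, retrogenes and other pathway genes are given under the limits. Among the cells kept without the limits, 29.3% and 55.8% of TO pachytene and 35.4% and 39.6% of testis pachytene spermatocytes lay beyond the limits. TO pachytene spermatocytes then numbered 92 and 52, diplotene and dividing cells 34 and 29, and round spermatids 25 and 44. Staging was repeated in this setting, so the boundary between zygotene and pachytene cells also moved.

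Levels are given as CPM, the UMIs of a gene scaled to the same total of UMIs in every summed library and stage, which count transcript 3′ ends and are compared between samples, not between genes. Steps from a stage to the next were tested with edgeR on these sums, with the library as a term, and a gene was called where its log2 fold change was beyond 1 in either direction with adjusted p under 0.01. In TOs, 3 steps of members were called, the increases of Ldhc, Ldha and Pdha2 into pachytene spermatocytes. In testes 11 were called, among them decreases of Gapdh as meiosis began and increases of Gapdhs and Pgk2 in spermatids. The somatic members Pgk1, Gapdh and Ldhb were also called higher into elongating spermatids. With no upper limits, both groups had called increases of Ldhc, Ldha and Pdha2 into pachytene, of Pgk2 into diplotene and of Gapdhs into round spermatids, and called decreases of Gapdh, Pgk1 and Pdha1 into pachytene.

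In testes, of 17689 genes tested, 0.548% were called higher and 2.63% lower at the step into differentiating spermatogonia, where 0 and 1 of 9 members were called. At the step into leptotene and zygotene the shares were 3.42% and 9.41%, with 1 member higher and 1 lower. For the step into pachytene they were 10% and 9.33%, again with 1 member each way. At the step into round spermatids they were 20.7% and 6.4%, with 1 member higher. For the step into elongating spermatids they were 15.1% and 7.83%, with 5 members higher (Gapdhs, Pgk1, Pgk2, Gapdh and Ldhb). The elongating sums came from 321 cells of testis replicate 1 and 2550 of testis replicate 2, in unlike clusters. The largest of these clusters held 21 and 1035 of them, and the next 5 and 692. The part of this mix in the steps was not tested. In TOs 6.1% of genes were called higher at the step into pachytene and 4.21% lower, with 3 members higher (Ldhc, Ldha and Pdha2). At the TO step into leptotene and zygotene, 3.96% and 2.7% of genes but no member were called. At the TO step into differentiating spermatogonia 4.27% of genes were lower and no member was. At the TO step into diplotene 0.0735% and 0.0113%, and at the testis step 4.81% and 2.35%, were called, again with no member. The median log2 fold change of the 9 members at the TO step into pachytene was 1.21, and that of all genes tested was -0.28.

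With no upper limits, 9 TO steps of members were called in place of 3 and 15 testis steps in place of 11. Of all genes, 17.7% and 14.2% were then called higher and lower at the TO step into pachytene, where 4 members were higher (Ldhc, Ldha, Pgk2 and Pdha2) and 3 lower (Gapdh, Pgk1 and Pdha1). The share higher was 4.69% at the step into diplotene, where Pgk2 was called, and 7.17% at the step into round spermatids, where Gapdhs was called. At the testis step into pachytene, with 18.2% and 18.8% of genes called, the same 3 somatic members were lower and Ldhc, Ldha and Pdha2 higher.

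**Figure D1:**
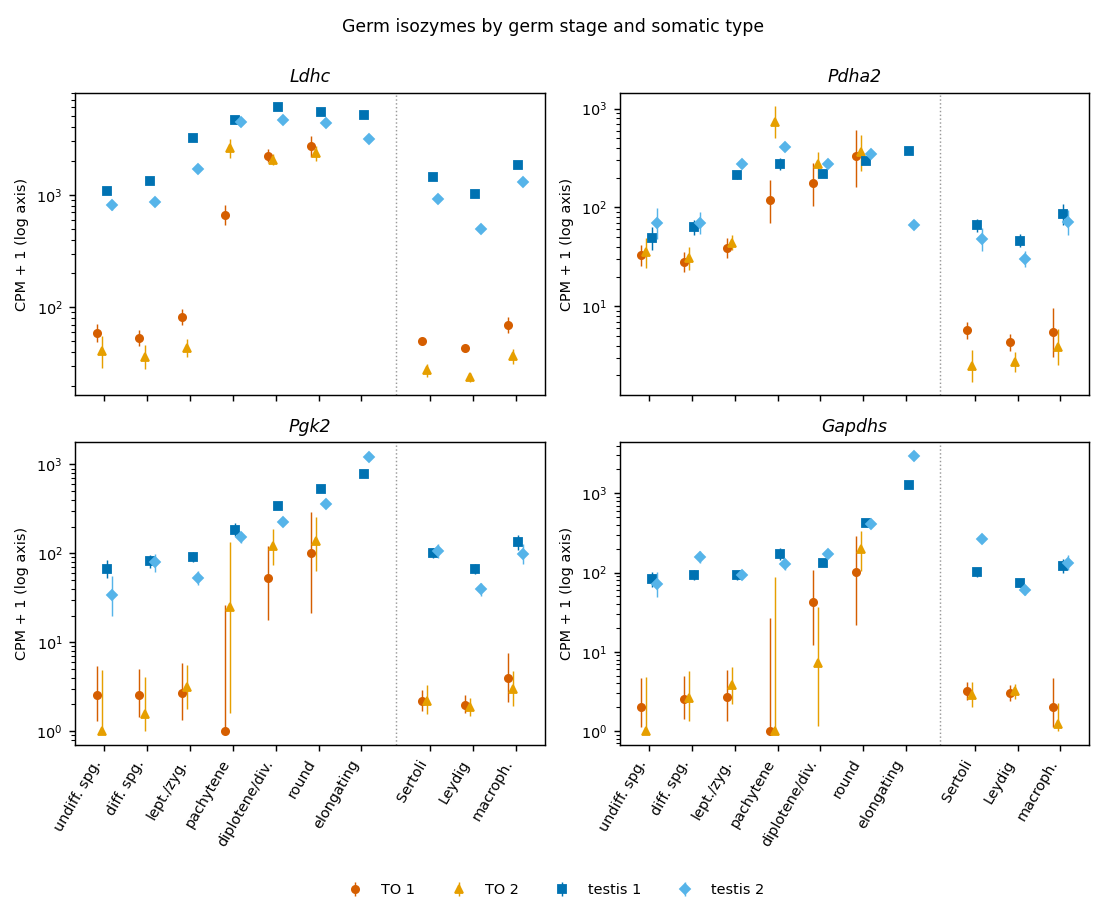
CPM + 1 (log axis) of Ldhc, Pdha2, Pgk2 and Gapdhs in each library, for 7 germ stages and 3 somatic types to the right of the dotted line. Points are library sums of at least 10 cells, and bars are 95% counting intervals. Ldhc in TOs stays below 102 CPM in the somatic types shown and up to the leptotene and zygotene stage. From pachytene to round spermatids it lies between 659 and 2696 CPM, whereas Gapdhs in TOs is at most 2.81 CPM up to the pachytene stage.

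Ldhc encodes the testis-specific lactate dehydrogenase subunit. In TOs its level was 58.0 and 39.5 CPM in undifferentiated spermatogonia, 52.8 and 35.2 CPM in differentiating spermatogonia and 81.0 and 42.8 CPM in leptotene and zygotene spermatocytes. These values lay in the range of the named TO somatic types, 17.0 to 102 CPM. In pachytene spermatocytes the level was 659 and 2577 CPM, in diplotene and dividing cells 2228 and 2040 CPM, and in round spermatids 2696 and 2334 CPM. In these sums every TO library was thus higher from the pachytene stage on than at any earlier stage. The diplotene sums pooled unlike clusters. In TOs, a cluster of 4 and 6 cells had 5394 and 5486 CPM of Ldhc. Another of 19 and 10 TO cells had 438 and 33.4 CPM, against 4929 and 4561 CPM in its testis cells. The largest unnamed cluster over all libraries, in none of these sums, had 5297 and 6340 CPM in its 17 and 16 TO cells. The step into pachytene was a log2 fold change of 4.19 (SE 0.51, adjusted p = 1.07e-07).

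Ldhc with no upper limits was at 3459 and 3122 CPM in TO pachytene spermatocytes, 6292 and 5577 CPM in diplotene and dividing cells, and 4512 and 6498 CPM in round spermatids. The 2 TO libraries then differed little at the pachytene stage, and the step into it was 6.25 (SE 0.52, adjusted p = 6.38e-10). Without TO replicate 2, whose pachytene sum came from 10 cells, the step under the upper limits was 2.40 and was not called.

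In testes, Ldhc was at 1076 and 815 CPM in undifferentiated spermatogonia, 3192 and 1675 CPM in leptotene and zygotene, 4641 and 4402 CPM in pachytene, 5999 and 4617 CPM in diplotene and dividing spermatocytes, and 5475 and 4305 CPM in round spermatids. The testis values from pachytene to elongating spermatids overlapped between stages. No step of Ldhc was called under the upper limits, with 1.22 (SE 0.43, adjusted p = 0.0292) into pachytene. That step with no upper limits was 2.49 (SE 0.43, adjusted p = 3.61e-05), from 1713 and 1120 CPM to 5850 and 5413 CPM.

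The level of Ldhc in testis spermatogonia was also found in testis somatic cells, which had 499 to 2582 CPM. Tnp1, a spermatid gene encoding a transition protein, was used as a marker of free spermatid RNA, and the ratio of Ldhc to Tnp1 UMIs was compared with that in macrophages of the same library. In undifferentiated spermatogonia the ratio was 0.998 and 1.13 times that of macrophages. In leptotene and zygotene spermatocytes it was 2.93 and 2.01 times, in pachytene 1.99 and 3.24 times and in diplotene and dividing cells 3.93 and 2.94 times the macrophage ratio. The pachytene ratios with no upper limits were 10.6 and 13.7 times, whereas those of leptotene and zygotene cells were 1.09 and 1.25 times. The Ldhc UMIs of testis spermatogonia were therefore in the proportion to Tnp1 that macrophages had, and those of pachytene spermatocytes were above it.

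**Figure D2:**
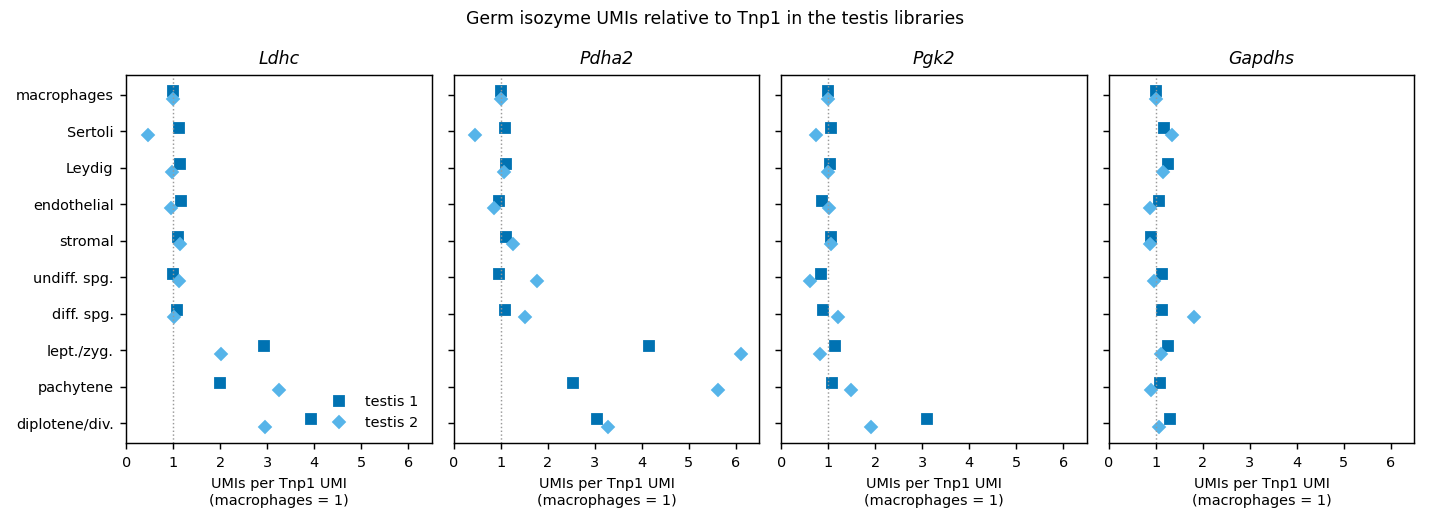
Ratio of germ isozyme UMIs to Tnp1 UMIs in the testis libraries, divided by the ratio in macrophages of the same library (dotted line at 1), for 5 somatic types and 5 germ stages. Ldhc reaches 2.01 and 2.93 at the leptotene and zygotene stage, Pdha2 4.16 and 6.11, and Pgk2 1.90 and 3.09 at the diplotene stage, whereas Gapdhs stays between 0.873 and 1.81 in all types shown.

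Ldha, which encodes the muscle-type subunit found in most cells, rose at the same step as Ldhc in TO germ cells. It was at 22.4 and 15.6 CPM in undifferentiated spermatogonia and 13.3 and 10.5 CPM in leptotene and zygotene spermatocytes. These values lay below all named TO somatic types (92.0 and 91.9 CPM in Sertoli cells). Ldha was at 76.3 and 477 CPM in pachytene spermatocytes and 406 and 507 CPM in diplotene and dividing cells. In the diplotene cluster of 19 and 10 TO cells it was at 93.9 and 11.1 CPM. The step into pachytene was 3.72 (SE 0.57, adjusted p = 6.28e-06), and with no upper limits, from 14.4 and 8.49 CPM to 634 and 597 CPM, it was 5.97 (SE 0.45, adjusted p = 1.70e-10). In testes Ldha was at 133 and 123 CPM in undifferentiated spermatogonia, 437 and 204 CPM in leptotene and zygotene, 569 and 676 CPM in pachytene and 764 and 610 CPM in diplotene and dividing spermatocytes. The testis step into pachytene was 1.31 (SE 0.40, adjusted p = 0.0108) and was not called, and it was 2.89 (SE 0.37, adjusted p = 7.92e-07) with no upper limits. The TO step was not called without TO replicate 2 (1.89). How reads common to the paralogs Ldha and Ldhc were assigned was not examined, so their split is uncertain.

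Ldhb, the heart-type subunit, was a somatic gene in both groups. It was at 1055 and 1031 CPM in TO Sertoli cells and 831 and 795 CPM in testis Sertoli cells, and at 3.10 to 12.6 CPM in every germ stage of testes. In TO germ stages it was at 15.1 to 166 CPM, with the highest values in pachytene, diplotene and round cells of TO replicate 1 (166, 135 and 133 CPM). The Sertoli markers Sox9, Wt1, Cldn11, Rhox8, Aard and Amh moved with it. Their summed level was 860, 801 and 566 CPM in these 3 stages of TO replicate 1, 119 to 146 CPM in TO replicate 2 and 22.5 to 48.0 CPM in the same stages of testes. The part of Sertoli RNA in the TO values of Ldhb and Gapdh was not tested.

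Pdha2 was above the somatic level in TO germ cells before meiosis. It was at 32.1 and 34.3 CPM in undifferentiated spermatogonia, 27.4 and 29.7 CPM in differentiating spermatogonia and 38.3 and 43.1 CPM in leptotene and zygotene spermatocytes of TOs. TO Sertoli cells, Leydig cells, macrophages and stromal cells had 1.48 to 7.30 CPM, and endothelial cells 16.8 and 4.24 CPM from 8 and 3 UMIs. After each cell was thinned to 1500 UMIs, a Pdha2 UMI was found in 3.94% to 6.58% of TO cells of these 3 stages and in 0.144% to 1.08% of TO Sertoli cells, Leydig cells, macrophages and stromal cells. Ldhc, by contrast, was found in 4.93% to 17.2% of the same germ cells and 3.66% to 16.3% of the same somatic types.

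In TO pachytene spermatocytes Pdha2 was at 118 and 740 CPM, in diplotene and dividing cells at 177 and 272 CPM and in round spermatids at 333 and 361 CPM. The step into pachytene was 2.58 (SE 0.49, adjusted p = 0.000205). It was 1.00 and not called without TO replicate 2. Without the upper limits the levels were 440 and 621 CPM in pachytene spermatocytes, and the step was 4.02 (SE 0.41, adjusted p = 1.95e-08). In testes, Pdha2 was at 62.1 and 69.3 CPM in differentiating spermatogonia, 211 and 275 CPM in leptotene and zygotene and 275 and 413 CPM in pachytene spermatocytes. The testis step into leptotene and zygotene was called, at 1.73 (SE 0.42, adjusted p = 0.00235, but not called without testis replicate 2, at 1.75), and the step into pachytene was called only with no upper limits, at 2.02 (SE 0.38, adjusted p = 8.56e-05). The ratio of Pdha2 to Tnp1 in testis leptotene and zygotene spermatocytes was 4.16 and 6.11 times that of macrophages. In elongating spermatids it was at 369 CPM in testis replicate 1 and 65.5 CPM in testis replicate 2, so these libraries stood far apart.

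Within leptotene and zygotene spermatocytes, a later cluster of 35, 49, 158 and 217 cells (TO replicates 1 and 2, then testis replicates 1 and 2) is described apart. In it, Pdha2 was at 94.0 and 122 CPM in TOs and 307 and 381 CPM in testes. In the earlier cluster Pdha2 was at 29.5 and 27.3 CPM in TOs and 89.9 and 73.2 CPM in testes. Ldhc was at 110 and 118 CPM in TOs and 4419 and 1893 CPM in testes in the later cluster, against 76.4 and 27.8 CPM and 1648 and 1260 CPM in the earlier one. Both genes were thus higher in the later cluster in all 4 libraries. These clusters were defined on the same cells and are given without a test.

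Pdha1, the X-linked somatic parent, was at 31.0 and 53.5 CPM in testis undifferentiated spermatogonia, 6.95 and 12.1 CPM in differentiating spermatogonia, 4.87 and 3.72 CPM in leptotene and zygotene and 0 CPM in pachytene spermatocytes of both testes. The step into differentiating spermatogonia was a decrease of 2.28 on the log2 scale (log2 fold change -2.28, SE 0.53, adjusted p = 0.00488). It was kept under 6 of 14 other settings and lost without any 1 of the 4 libraries (-2.19 to -2.07). TOs had 54.0 and 40.6 CPM, 24.6 and 24.2 CPM, and 23.3 and 28.8 CPM in the first 3 stages. In TO pachytene spermatocytes 3 UMIs and none were found, and with no upper limits the level there was 4.01 and 1.72 CPM, a step of -3.16 (SE 0.60, adjusted p = 0.000138).

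Pgk2 came on later. In TOs it was at 0 to 2.10 CPM in spermatogonia and leptotene and zygotene spermatocytes, against 0 to 3.01 CPM in TO somatic types. In pachytene spermatocytes 0 and 1 UMI were found, in diplotene and dividing cells 52.0 and 120 CPM from 5 and 19 UMIs, and in round spermatids 99.9 and 135 CPM from 3 and 9 UMIs. No step was called in these sums, and the step into diplotene was 3.91 (SE 1.3, adjusted p = 0.2). The largest unnamed cluster, outside these sums, held 5 and 20 Pgk2 UMIs in its 17 and 16 TO cells. The level with no upper limits was 2.05 and 2.19 CPM in leptotene and zygotene, 21.7 and 40.0 CPM in pachytene, 157 and 208 CPM in diplotene and dividing cells and 212 and 381 CPM in round spermatids. Each TO library was higher at each of these stages than at the one before. The steps into pachytene (4.04, SE 0.68, adjusted p = 2.81e-05) and into diplotene (2.73, SE 0.51, adjusted p = 0.000695) were then called.

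In testes Pgk2 was at 66.6 and 33.4 CPM in undifferentiated spermatogonia, 184 and 152 CPM in pachytene, 342 and 225 CPM in diplotene and dividing spermatocytes, 528 and 362 CPM in round spermatids and 773 and 1225 CPM in elongating spermatids. The step into elongating spermatids was 2.60 (SE 0.46, adjusted p = 2.46e-05), and without testis replicate 2 it was 0.86 and not called. The step into pachytene was 1.52 (SE 0.45, adjusted p = 0.00937). It was called under only 2 of 14 other settings, with 0.91 to 1.85 when 1 of the 4 libraries was left out, and the ratio of Pgk2 to Tnp1 at that stage was 1.09 and 1.48 times that of macrophages. At the diplotene stage the ratio was 3.09 and 1.90 times. Without the upper limits it was 2.68 and 3.16 times in pachytene and 6.20 and 4.53 times in diplotene spermatocytes, and the step into diplotene was called, at 1.87 (SE 0.45, adjusted p = 0.00234).

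Pgk1 was at 14.6 and 15.6 CPM in testis undifferentiated spermatogonia, 6.31 and 2.32 CPM in pachytene and 4.16 and 2.17 CPM in diplotene and dividing spermatocytes. In elongating spermatids it was at 39.4 and 8.28 CPM, and the step was 2.93 (SE 0.40, adjusted p = 3.54e-07), called under all 14 other settings. In TOs, Pgk1 was at 28.5 and 10.4 CPM in undifferentiated spermatogonia and 38.3 and 28.8 CPM in leptotene and zygotene spermatocytes, and with no upper limits it was at 5.61 and 6.29 CPM in pachytene. That last step was -2.28 (SE 0.47, adjusted p = 0.000273), and the testis step in the same setting was -2.02 (SE 0.43, adjusted p = 0.000368). Under the upper limits neither was called.

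Gapdhs, the enzyme of the sperm tail, was the last germ isozyme to come on. In TOs it was at 0 to 2.81 CPM up to the leptotene and zygotene stage and had no UMI in pachytene spermatocytes. The UMIs in diplotene and dividing cells were 4 and 1, and in round spermatids 3 and 13, or 99.9 and 196 CPM. The level with no upper limits was 3.21 and 1.72 CPM in pachytene, 0 and 4.76 CPM in diplotene and dividing cells and 66.8 and 143 CPM in round spermatids, where it rested on 6 and 169 UMIs. The step into round spermatids was then 5.36 (SE 0.88, adjusted p = 9.33e-05). Under the upper limits it was 3.06 (SE 0.94, adjusted p = 0.0505) and was not called.

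In testes Gapdhs was at 131 and 172 CPM in diplotene and dividing spermatocytes, 418 and 404 CPM in round spermatids and 1277 and 2917 CPM in elongating spermatids. The steps into round spermatids (2.04, SE 0.46, adjusted p = 0.000474) and elongating spermatids (3.65, SE 0.49, adjusted p = 3.09e-07) were called, the first of them not without TO replicate 1 (1.70), which enters the shared estimate of spread. Before these stages, its 71.3 to 172 CPM were near those of testis somatic types, 59.8 to 265 CPM. Its ratio to Tnp1 was 0.906 to 1.29 times that of macrophages from undifferentiated spermatogonia to diplotene cells, except for 1.81 times in differentiating spermatogonia of testis replicate 2.

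Gapdh fell as meiosis began in testes. It was at 318 and 292 CPM in differentiating spermatogonia, 65.0 and 42.2 CPM in leptotene and zygotene and 8.83 and 16.3 CPM in pachytene spermatocytes, with no overlap between these stages. The steps were -2.68 (SE 0.38, adjusted p = 2.44e-06) and -1.72 (SE 0.45, adjusted p = 0.00337), the second of which was not called without testis replicate 1 (-1.06). In round spermatids it was at 8.43 and 7.71 CPM and in elongating spermatids at 23.6 and 10.0 CPM. The step into elongating spermatids was 2.08 (SE 0.38, adjusted p = 5.03e-05), but with scaling to total UMIs alone it was 0.94 and not called, and without testis replicate 2 it was 1.80 and not called. Ldhb had a called step of 1.69 (SE 0.43, adjusted p = 0.00219) at the same point, from 5.03 and 5.04 CPM to 10.7 and 4.71 CPM. It was 0.45 with total UMIs, 1.46 without TO replicate 1 and 1.39 without testis replicate 2, not called in any of these, and the CPM values went in opposite directions in the 2 libraries.

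In TOs, Gapdh was at 296 and 340 CPM in differentiating spermatogonia and 141 and 111 CPM in leptotene and zygotene spermatocytes, a step of -1.23 (SE 0.35, adjusted p = 0.0168). It was at 83.2 and 47.7 CPM in pachytene, 52.0 and 6.34 CPM in diplotene and dividing cells and 200 and 15.1 CPM in round spermatids. These came from 12 UMIs or fewer a sum. The pachytene level with no upper limits was 46.5 and 18.3 CPM, and the step into pachytene was -1.93 (SE 0.50, adjusted p = 0.00270). In that setting, round spermatids of TO replicate 1 had 223 CPM of Gapdh and 936 CPM of the Sertoli markers, and those of TO replicate 2 had 8.44 and 48.9 CPM.

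**Figure D3:**
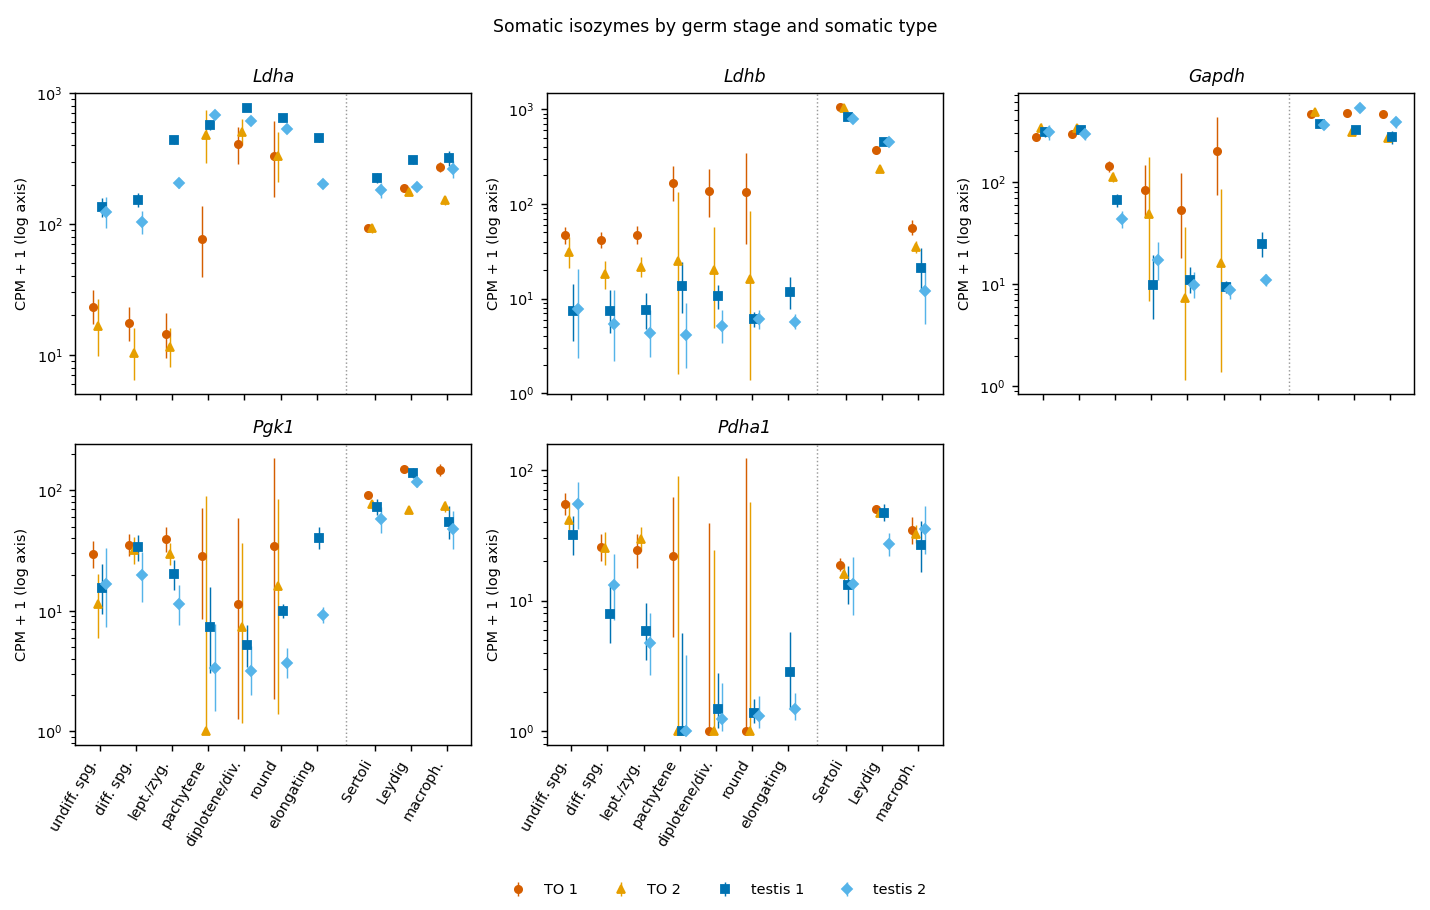
CPM + 1 (log axis) of Ldha, Ldhb, Gapdh, Pgk1 and Pdha1 in each library, for 7 germ stages and 3 somatic types to the right of the dotted line, under the study's limits. Points are sums of at least 10 cells with 95% counting intervals. Gapdh, Pgk1 and Pdha1 of testes lie lower from the pachytene stage to round spermatids than at any earlier germ stage, whereas Ldha is highest there.

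**Figure D4:**
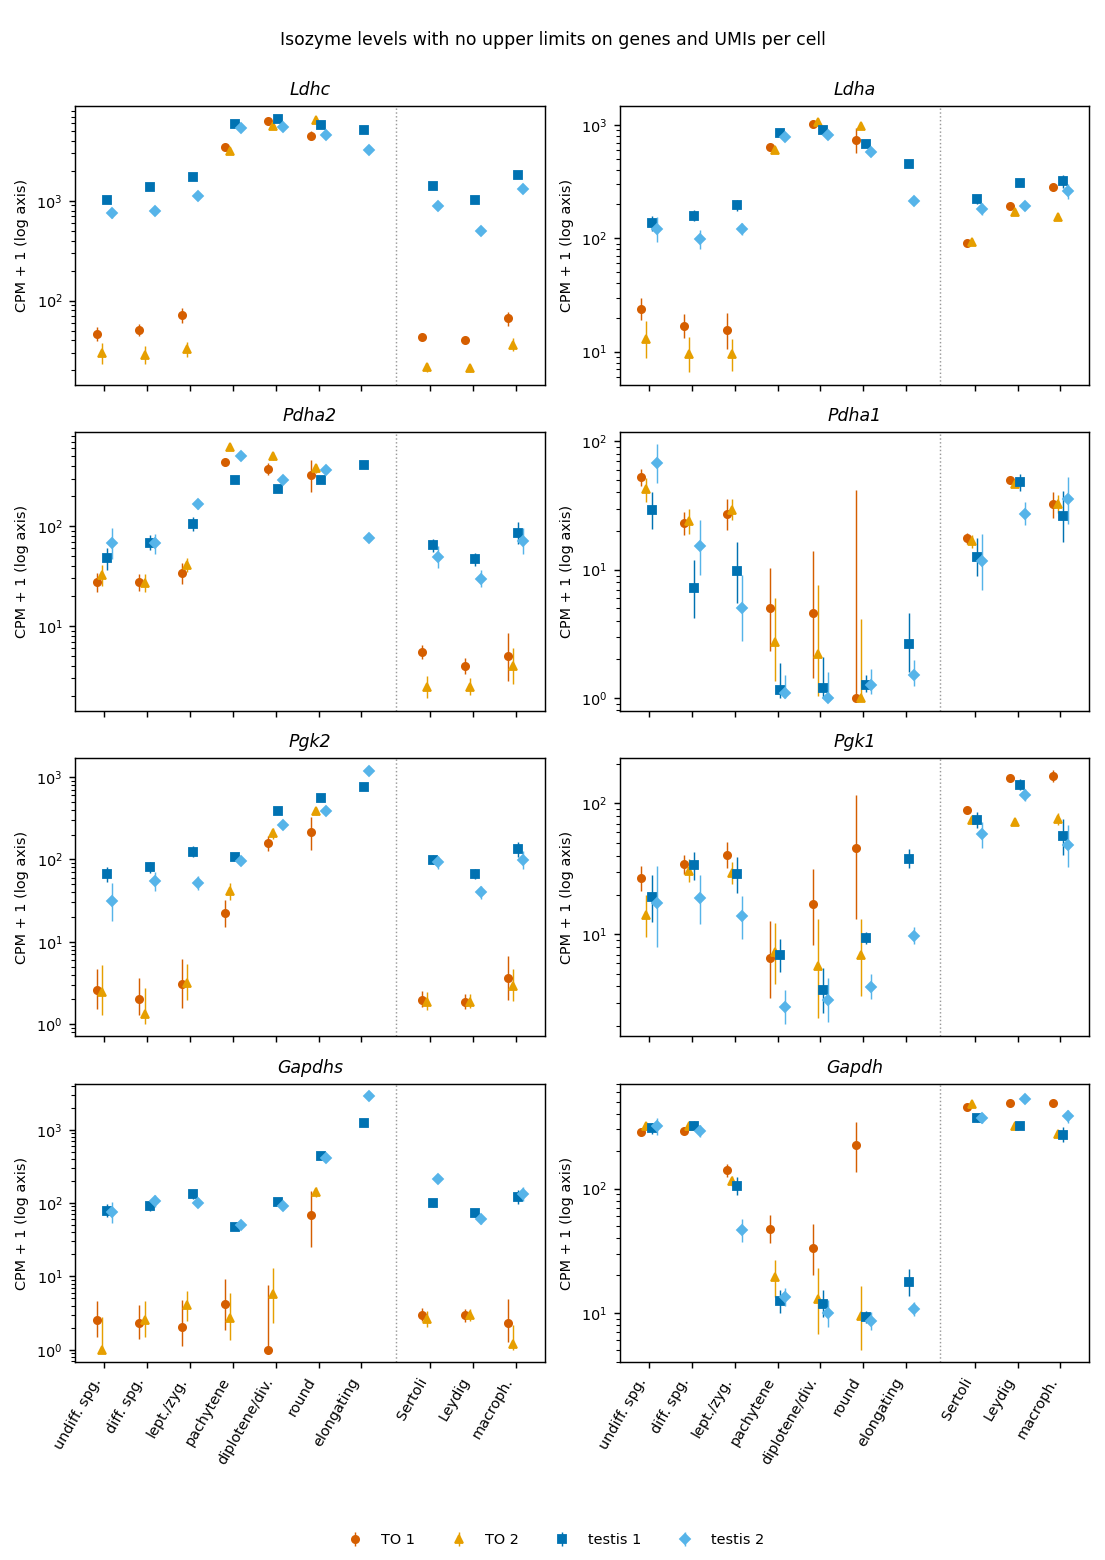
CPM + 1 (log axis) of the 4 germ isozymes (left) and of Ldha, Pdha1, Pgk1 and Gapdh (right) with no upper limits on genes and UMIs per cell. Points are library sums of at least 10 cells with 95% counting intervals. In TOs, Ldhc, Ldha and Pdha2 step up at the pachytene stage, Pgk2 over the pachytene and diplotene stages and Gapdhs at the round spermatid stage, while Pdha1 and Pgk1 drop at the pachytene stage.

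The steps of TOs and testes were compared directly as a difference of log2 fold changes. Of the 9 members, 1 was called, Ldhc at the step into pachytene, which was larger in TOs by 2.97 (SE 0.64, adjusted p = 0.00733). Of all genes, 0.786% were called in this direction and 0.0339% in the other. For the steps into diplotene and round spermatids, 0.00565% and 0.0791% of genes were smaller in TOs, and no member was. The call was lost under 6 of 13 other settings, and the difference was 4.39 without TO replicate 1, 1.51 without TO replicate 2 and 2.29 without testis replicate 1, not called in any of these. The testis step started from leptotene and zygotene spermatocytes, whose ratio of Ldhc to Tnp1 was 2.93 and 2.01 times that of macrophages (1.09 and 1.25 times with no upper limits), and the part of free RNA in the difference was not tested. With no upper limits, Ldha (3.08, SE 0.54, adjusted p = 0.000679) was called with Ldhc (3.76, SE 0.61, adjusted p = 0.000335), and 2.65% of all genes were called in this direction.

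Within a stage, 22 differences of members between TOs and testes were called. In undifferentiated spermatogonia Gapdhs, Pgk2, Ldhc and Ldha were lower in TOs, in differentiating spermatogonia and in leptotene and zygotene spermatocytes Pdha2 as well. Ldhb was higher in TOs in all 3 stages. In leptotene and zygotene spermatocytes Gapdh (1.08, SE 0.29, adjusted p = 0.00256) and Pdha1 (2.45, SE 0.48, adjusted p = 7.48e-05) were higher in TOs too. The later of the 2 clusters of this stage held 35 of 241 and 49 of 304 TO cells against 158 of 431 and 217 of 407 testis cells. Gapdh was at 159 and 128 CPM in TOs and 121 and 84.0 CPM in testes in the earlier cluster, and at 24.5 and 23.2 CPM and 20.4 and 20.2 CPM in the later one. Pdha1 was at 25.7 and 31.6 CPM against 10.1 and 6.0 CPM, and at 8.17 and 14.7 CPM against 0.729 and 2.53 CPM. TOs were higher within both clusters, by less for Gapdh than over the whole stage, and neither difference was tested within clusters. Ldhb was not called without TO replicate 1 in both spermatogonia stages (2.13 and 1.57), nor was any of the 6 called members of differentiating spermatogonia without TO replicate 2 (-6.28 to 2.78), nor Pdha2 there without TO replicate 1 (-1.15). In leptotene and zygotene spermatocytes Gapdh was not called without TO replicate 1 (1.01), TO replicate 2 (1.23) or testis replicate 2 (0.80), nor Pdha1 without TO replicate 2 (2.27). For Ldhc the differences were -4.34 (SE 0.28, adjusted p = 8.38e-10), -4.69 (SE 0.29, adjusted p = 5.78e-08) and -5.47 (SE 0.43, adjusted p = 2.40e-12). In these 3 stages 9.06%, 12.8% and 23% of all genes were called lower in TOs, and 0.763%, 1.29% and 6.64% higher.

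The same 4 germ isozymes were called lower in TO Sertoli cells, Leydig cells and macrophages, by -3.95 to -7.67 on the log2 scale, against -4.34 to -6.70 for Ldhc, Pgk2 and Gapdhs in the 2 spermatogonia stages. In Sertoli cells Ldha was also lower (-1.04, SE 0.18, adjusted p = 0.00346, not called without TO replicate 1, TO replicate 2 or testis replicate 1, at -1.08 to -0.87), and no member was higher in these 3 types. Of all genes, 18.4%, 12.2% and 16.1% were called lower and 7.84%, 2.07% and 3.14% higher. For Gapdhs and Pgk2 in TOs many sums held 0 to 4 UMIs, and the fitted values there depend on the prior count and are no bounds.

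From pachytene on, TO sums came from far fewer cells. In pachytene spermatocytes no member was called, with 0.574% and 0.267% of genes called higher and lower, and Ldhc at -1.83 (SE 1.2, adjusted p = 0.373). In diplotene and dividing cells Gapdhs was lower in TOs (-3.34, SE 0.65, adjusted p = 0.00149), with 5.28% of genes higher and 2.71% lower, and Ldhc was at -1.79 (SE 0.64, adjusted p = 0.0531). In round spermatids Gapdhs (-2.11, SE 0.55, adjusted p = 0.00446) and Pgk2 (-2.63, SE 0.58, adjusted p = 0.000460) were lower, with 3.49% of genes lower, against a median of all genes of -0.84. The Gapdhs call in round spermatids was kept under 4 of 13 other settings and lost without any 1 of the 4 libraries (-3.07 to -1.51). Of the TO round spermatids, 8 of 12 and 11 of 16 cells lay in 1 cluster that held 554 of 3098 and 506 of 2073 testis cells. Within it Gapdhs was at 164 and 305 CPM in TOs, from 3 and 13 UMIs, and at 311 and 300 CPM in testes, and Pgk2 was at 109 and 70.4 CPM, from 2 and 3 UMIs, and at 240 and 181 CPM. The Gapdhs values thus overlapped within that cluster, and the part of the mix of clusters in the differences was not tested. The Pgk2 call was lost without TO replicate 1 (-2.44), TO replicate 2 (-3.20) or testis replicate 1 (-1.74). In diplotene cells Gapdhs was lost without testis replicate 1 (-3.22) or testis replicate 2 (-2.93). There 19 of 36 and 10 of 20 TO cells lay in a cluster that held 163 of 884 and 230 of 1190 testis cells, and in it Gapdhs had 0 UMIs in both TO libraries and was at 242 and 205 CPM in testes.

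With no upper limits, the differences of Ldhc were -0.97 (SE 0.27, adjusted p = 0.0321) in pachytene, -0.15 (SE 0.29, adjusted p = 0.786) in diplotene and -0.24 (SE 1.1, adjusted p = 0.926) in round spermatids. Those of Pdha2 were 0.23 (SE 0.34, adjusted p = 0.635), 0.65 (SE 0.29, adjusted p = 0.162) and -0.23 (SE 0.59, adjusted p = 0.865). Gapdhs was lower in TOs at all 3 stages (-4.51, SE 0.39, adjusted p = 0.000926, then -5.17, SE 0.63, adjusted p = 0.000545, then -2.15, SE 0.61, adjusted p = 0.00493). Pgk2 was lower in pachytene (-1.85, SE 0.30, adjusted p = 0.00481) and was not called in diplotene cells (-0.92, SE 0.31, adjusted p = 0.0662) or round spermatids (-0.93, SE 0.62, adjusted p = 0.338). Of all genes 5.04%, 2.9% and 9.15% were called lower at these stages. The testis levels of Gapdhs in pachytene and diplotene cells were in the macrophage proportion to Tnp1, and TO cells of these stages had no Tnp1 UMI.

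The named somatic types served as reference for the levels. In TOs Gapdh was highest in Sertoli cells (471 ± 19.8 CPM, SD, n = 2), with overlapping values in Leydig cells (470 and 305 CPM) and macrophages (465 and 265 CPM). Cells named endothelial (389 and 379 CPM) and spermatogonia (276 to 340 CPM) lay below both Sertoli values. The summed level of the endothelial markers Vwf, Pecam1, Cdh5, Kdr and Egfl7 was 231 and 139 CPM in these TO cells. In testis endothelial cells it was 2454 and 1690 CPM. Pgk1 in TOs was at 89.8 and 75.4 CPM in Sertoli cells and 151 and 67.1 CPM in Leydig cells, and Pdha1 at 17.8 and 15 CPM and 49.2 and 45.5 CPM. In testes Pgk1 was at 72 and 56.4 CPM and 139 and 116 CPM, and Pdha1 at 12.3 CPM in both Sertoli sums and 46.2 and 26.1 CPM in Leydig cells. None of these differences between the groups was called.

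The share of a family's UMIs taken by the germ isozyme does not depend on the scaling of a library. In TOs the Ldhc share of LDH UMIs was 46.0% and 46.3% in undifferentiated spermatogonia, 57.7% and 57.8% in leptotene and zygotene, 73.1% and 83.7% in pachytene, 80.5% and 79.5% in diplotene and 85.3% and 87.1% in round spermatids. It was 2.32% to 17.4% in TO Sertoli cells, Leydig cells and macrophages. In testes it was 86.3% to 89.4% at each of these stages, and 43.9% to 84.4% in the same somatic types. The Pdha2 share of E1 alpha UMIs in TOs was 37.3% and 45.8% in undifferentiated spermatogonia, 62.2% and 60% in leptotene and zygotene, 85.0% and 100% in pachytene and 100% in both libraries in diplotene and round cells. In testes it was 60.9% and 56.4%, 97.7% and 98.7%, and 99.8% to 100% from pachytene to round spermatids.

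The shares of Pgk2 and Gapdhs changed later. Pgk2 took 0% to 6.82% of PGK UMIs in TOs up to the leptotene and zygotene stage, 83.3% and 95% in diplotene and 75.0% and 90.0% in round spermatids, from 4 to 20 UMIs a sum. Without the upper limits it took 79.4% (exact 95% interval 62.1% to 91.3%) and 86.4% (77.0% to 93.0%) in pachytene and 90.7% and 97.8% in diplotene cells. Gapdhs took 0% to 2.47% of GAPDH UMIs in TOs up to the leptotene and zygotene stage, and with no upper limits 6.45% and 8.57% in pachytene, 0% and 28.6% in diplotene and 23.1% and 94.4% in round spermatids. TO replicate 1, with the low Gapdhs share in round spermatids, also had the high Sertoli marker level there, and the part of Sertoli RNA in that share was not tested. The germ isozyme had more than 50% of its family in both libraries in 11 of 24 combinations of family and stage in TOs and 22 of 24 in testes. Testis macrophages also passed 50% for Ldhc (84.4% and 82.7%), Pgk2 (71.0% and 67.7%) and Pdha2 (76.8% and 67.2%), but not for Gapdhs (30.8% and 25.8%). The part of free RNA in the testis count was not tested. For single shares, the exact two-sided permutation test over 2 against 2 libraries cannot go below p = 0.33, and most comparisons reached that value. The intervals cover counting error only.

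**Figure D5:**
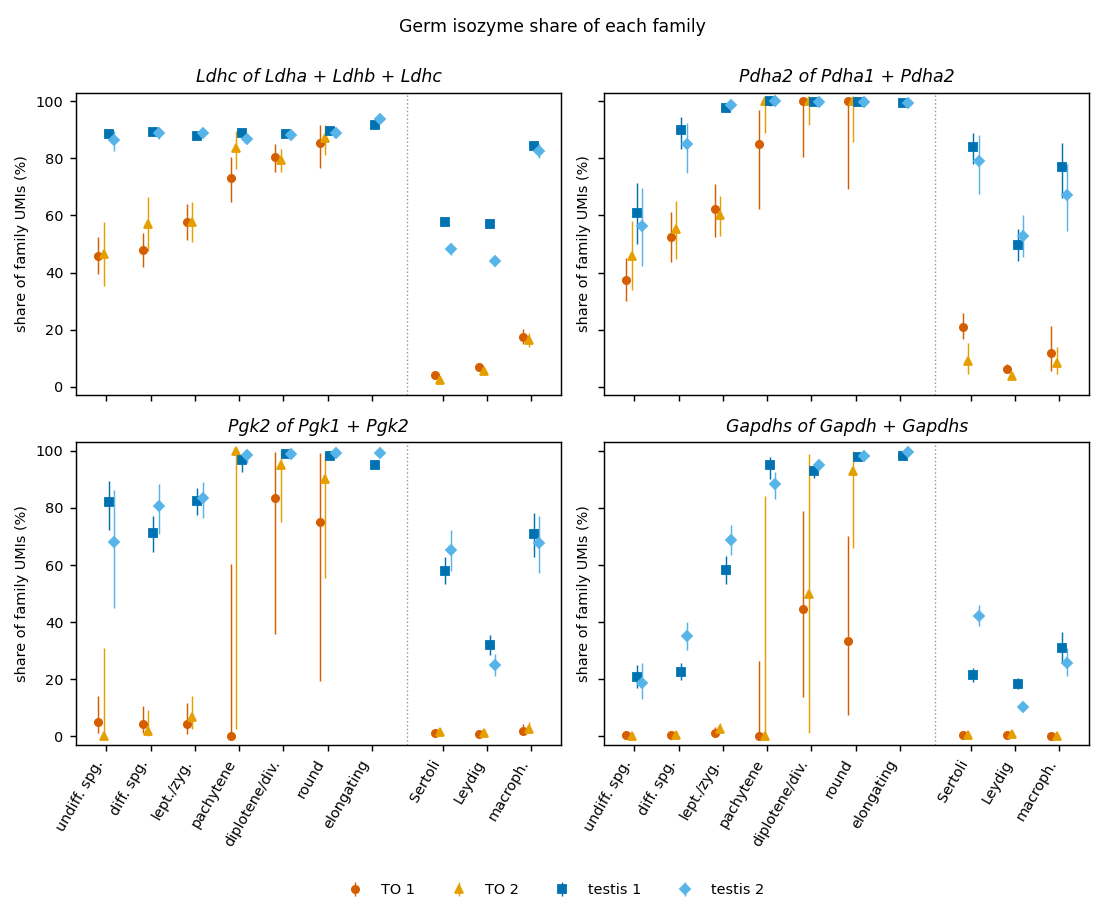
Share of family UMIs (%) taken by Ldhc, Pdha2, Pgk2 and Gapdhs per library, for 7 germ stages and 3 somatic types to the right of the dotted line. Points are sums of at least 10 cells, and bars are exact 95% intervals of counting error. TO shares climb from 37.3% to 57.1% for Ldhc and Pdha2 in spermatogonia and from 0% to 5.08% for Pgk2 and Gapdhs, while testis somatic types also hold large germ isozyme shares.

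Single TO germ cells were counted by a limit on Ldhc that was chosen after its values were seen. At least 1000 CPM and 3 UMIs of Ldhc were found in 37 of 992 and 40 of 704 TO germ cells, or 3.73% and 5.68%. In TO somatic cells these were 29 of 8810 and 4 of 8009, or 0.329% and 0.0499%. In testes the limit separated nothing, with 75.0% and 53.8% of somatic cells above it. None of the 77 TO germ cells was a spermatogonium or a leptotene or zygotene spermatocyte. In TO replicate 1 they fell into pachytene (10), diplotene and dividing (9), round spermatid (4) and unnamed clusters (14), and in TO replicate 2 these counts were 5, 8, 11 and 16. Of these barcodes, 1 was also used in a testis library.

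In these cells the other germ isozymes accompanied Ldhc to different degrees. Of the 37 and 40 cells, 22 and 34 had an Ldha UMI, 19 and 29 a Pdha2 UMI, 7 and 20 a Pgk2 UMI and 2 and 7 a Gapdhs UMI. All of them had Ldhc by the limit itself, and at least 1 further germ isozyme was found in 21 and 35. Summed, they held 294 and 497 CPM of Pdha2, 81.8 and 260 CPM of Pgk2 and 32.7 and 77.3 CPM of Gapdhs. Pdha1 had 1 and 0 UMIs and Tnp1 had 0 and 5 UMIs in all of them. The limit at 2000 CPM gave 24 and 31 cells, and at 500 CPM 45 and 46 cells.

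The X-linked share of all UMIs, a readout of X silencing that the clustering did not use, set the parents Pgk1 and Pdha1 in context. In testes it was 1.82% and 1.87% in undifferentiated spermatogonia, 1.22% and 1.24% in leptotene and zygotene, 0.468% and 0.250% in pachytene and 1.28% and 1.01% in round spermatids. In TOs it was 2.22% and 2.12%, 2.73% and 2.64%, 1.35% and 0.181%, and 2.55% and 2.57% at the same stages. In diplotene and dividing cells it was 0.567% and 0.492% in testes and 1.47% and 1.80% in TOs. The Sertoli markers were at 146 CPM in that stage of TO replicate 2, and why its X-linked share was high was not tested. TO pachytene spermatocytes of replicate 1 were high in both X-linked UMIs and Sertoli markers, and Sertoli cells had 3.99% to 4.19%.

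Other autosomal retrogenes with X-linked parents had other patterns. Rpl10l, a copy of the ribosomal protein gene Rpl10, was at 61.1 and 49.0 CPM in testis undifferentiated spermatogonia and 112 and 132 CPM in pachytene spermatocytes, where Rpl10 was at 6.31 and 3.87 CPM. In TO pachytene cells Rpl10l was at 6.93 and 95.5 CPM and Rpl10 at 243 and 0 CPM, so these libraries stood apart. Rbmxl2, a copy of the RNA-binding protein gene Rbmx, was already at 302 and 439 CPM in TO and 273 and 359 CPM in testis undifferentiated spermatogonia, against 1.77 to 12.6 CPM in TO somatic types. In pachytene spermatocytes it was at 153 and 1313 CPM in TOs and 327 and 513 CPM in testes. Cstf2t was at 43.3 and 42.7 CPM in TO undifferentiated spermatogonia and 22.7 and 41.0 CPM in testis pachytene spermatocytes, and Utp14b was highest at 57.1 and 45.9 CPM in TO leptotene and zygotene spermatocytes. These values are descriptions without a test.

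Of 39 further genes of glycolysis and pyruvate use, 33 were measured in the steps. At the TO step into pachytene 3 were called higher and 2 lower, where 6.1% and 4.21% of all genes were. At the testis step 5 were higher and 3 lower, where 10% and 9.33% of all genes were. Whether these counts differ from the shares over all genes was not tested. Ldhal6b, a lactate dehydrogenase-like retrogene, was higher at both (3.97, SE 0.53, adjusted p = 6.75e-07 in TOs and 1.55, SE 0.42, adjusted p = 0.00439 in testes), and so was Pfkp, the platelet-type phosphofructokinase (3.84 and 2.29). Pgam2, the muscle-type phosphoglycerate mutase, was higher in TOs (3.68, SE 0.84, adjusted p = 0.00149), and Pfkm, Eno4, an enolase of the sperm tail, and Pdk2 in testes. Pdk3, a kinase that inhibits pyruvate dehydrogenase, and Mpc1, a subunit of the mitochondrial pyruvate carrier, were lower at both steps, by -2.77 and -2.08 in TOs and -1.5 and -1.90 in testes. Pdk1 was lower in testes (-5.86). Whether these steps differed between groups was tested for all 33, and none was called. Of all genes, 0.786% had a larger and 0.0339% a smaller step in TOs by call.

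Earlier, at the step into leptotene and zygotene, Hk2, Aldoc, Pgam1 and Aldoa were lower in both groups. Hexokinase 2 (Hk2) had -2.24 (SE 0.57, adjusted p = 0.00629) in TOs and -3.77 (SE 0.63, adjusted p = 3.92e-05) in testes. Gpi1 was lower in testes only by call, and in TOs Pdk2 was lower and Mpc1 higher (1.81, SE 0.32, adjusted p = 0.000166). At the step into differentiating spermatogonia Pdk1 (-3.71 in TOs and -3.98 in testes) and Pkm, which encodes the pyruvate kinase of most tissues (-1.68 and -2.15), were lower in both groups, and Aldoc in testes.

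In testes, 10 of 33 were called higher and none lower at the step into round spermatids, where 20.7% of all genes were called higher, among them the germ-specific aldolase retrogene Aldoart2 (2.59, SE 0.42, adjusted p = 7.51e-06), Pdp1 (2.99), Pdk3 (2.47), Pkm (2.23), Aldoa (1.66), Hk1 (1.40) and Tpi1 (1.37). Into elongating spermatids, where 15.1% of all genes were higher, 12 of 33 were higher and 1, Pfkm, lower, among the higher ones Gpi1 (4.63, SE 0.45, adjusted p = 3.16e-10), Pkm (3.37), Hk2 (2.74), Aldoa (2.43), Hk1 (2.28), Tpi1 (2.07) and Eno1 (2.06). The median of the list at this step was 1.02 and that of all genes 0.19, and with total UMIs the median of all genes was -0.99. In TOs no gene of the list was called at the steps into diplotene cells or round spermatids. Of all genes, 0.0735% and 1.66% were called higher at these TO steps and 0.0113% and 0.447% lower.

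Between the groups, Aldoart2, Pgam2 and Ldhal6b were lower in TOs in undifferentiated spermatogonia (-8.55, -4.49 and -4.57) and were also lower in TO Sertoli cells (-7.71, -5.32 and -4.69) and macrophages (-6.47, -5.52 and -4.77). Hk1 was lower in both spermatogonia types, in leptotene and zygotene spermatocytes, in Sertoli cells and in macrophages of TOs. In round spermatids Aldoart2 (-2.63, SE 0.59, adjusted p = 0.000558) and Pgam2 (-2.37, SE 0.54, adjusted p = 0.000795) were lower in TOs and Pgam1, the mutase of most tissues, was higher (3.01, SE 0.75, adjusted p = 0.00269). In TO round spermatids Pgam1 was at 166 and 105 CPM, and in testes at 8.05 and 10.9 CPM. The TO values rest on 5 and 7 UMIs, and the Sertoli markers in the same sums were at 566 and 135 CPM in TOs and 23.0 and 24.2 CPM in testes, whose part in the result was not tested.

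The genes whose testis pattern was most like each germ isozyme were found among 11141 genes by Pearson correlation of log2(CPM + 1) over 24 sums of library and type, which share libraries and free RNA. For Gapdhs these were Smcp, which encodes a protein of the sperm mitochondrial capsule, AI507597, Cdrt4, 1700029H14Rik and Spz1, with r of 0.99. For Pgk2 they were Gm5617 (0.98), Odf2, an outer dense fibre gene, 1110017D15Rik, Dnajc5b and Hspb9. For Ldhc they were Pdcl2 (0.99), Asrgl1, Dkkl1, Oscp1 and Phf7, and for Pdha2 Ube2u (0.95), Actr10, Nectin3, Wfdc15a and 4930549G23Rik. Among the members, Gapdhs correlated with Pgk2 at 0.90 and Ldhc with Pdha2 at 0.89 and with Ldha at 0.78. Gapdhs correlated with Pdha2 at only 0.36. Ldhc correlated with Gapdh at -0.91.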

How the data were processed

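The authors sequenced 10x Genomics libraries and deposited raw UMI counts per gene and cell barcode, made with Cell Ranger 7.1.0 on mm10 per the submitters' processing notes. The study's limits on cells were applied (between 1000 and 5000 genes, no more than 20000 UMIs, a mitochondrial share up to 10%), and doublets found by simulation were removed. Cells were integrated over libraries and clustered (scanpy 1.11.5, leidenalg 0.10.2, 2000 variable genes, 20 neighbours, resolution 1) without the X-linked, mitochondrial, member, pathway and retrogene-pair genes, 1147 in all, and clusters were named from markers. Counts were summed per library and stage, with at least 10 cells a sum for a test.

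Steps between stages, with library as a term, and TOs against testes within a stage were tested on the sums with edgeR 4.0.16 (quasi-likelihood, TMM, filterByExpr, Benjamini-Hochberg adjustment over all genes tested). All adjusted p-values in the text are from these fits. Each SE was derived as the absolute log2 fold change over the square root of the F statistic, not taken from the fit. The design leaves 2 libraries a group, and intervals cover counting error only. On simulated data for the testis step into pachytene (15587 genes), 12% of genes changed by 1.5 on the log2 scale and 72% of those changed by 3 were recovered, and for the TO step (15619 genes) 2% and 33%. DESeq2 1.42.0, other scalings, filters, stage assignments and leaving out each library were tried as alternatives.

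Every member is reported. Of the 39 pathway genes, those past the threshold were named in order of fold change, to at most 8 a comparison, except 1 that is not reported here. The members and all lists were chosen with earlier results of these data known. Positions come from GENCODE vM21, and promoter sequences, found for 9 of 9 members, from RefSeq (GRCm38.p6).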

Additional observations from a re-analysis of the deposited data

Results flagged for a closer look

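The step of Ldhc into pachytene spermatocytes differed between the groups by the test of the difference itself, and was larger in TOs than in testes by 2.97 on the log2 scale (SE 0.64, adjusted p = 0.00733, edgeR quasi-likelihood test with Benjamini-Hochberg adjustment). Both TO libraries and both testis libraries had higher Ldhc in pachytene than in leptotene and zygotene spermatocytes. Dixon's outlier check needs at least 4 samples a group and was not applied.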

How the results depend on the processing

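Of the 50 results for single members, none changed direction under any alternative run. They had been picked as called and the runs reused the same libraries, so a change of direction was unlikely. The call was lost for 17 without TO replicate 2, 12 without TO replicate 1, 8 without testis replicate 1 and 9 without testis replicate 2. Not every run covered all 50: stages by matching kept 25 and lost 12, and no replicate block kept 9 and lost 6. The 11 testis steps called became 7 with scaling to total UMIs, 6 with no replicate block, 19 at an adjusted p below 0.05 with no fold threshold, and 5 to 11 when 1 library was left out. The 3 TO steps became 9 with no upper limits, 7 with no doublet removal, 5 with stages by matching, 1 with at least 3000 UMIs per cell, and 0 to 4 when 1 library was left out. The 1 step that differed between groups became 2 with DESeq2 size factors, total UMIs, the DESeq2 Wald test, no upper limits or an adjusted p below 0.05, 3 with no doublet removal, 0 with matching, at least 3000 UMIs or no replicate block, and 0 to 1 when 1 library was left out. The 22 differences within germ stages became 34 with no doublet removal, and the 11 family and stage combinations with a germ share above 50% became 3 with at least 3000 UMIs per cell. The cause of these changes was not tested. The setting with at least 3000 UMIs, and no doublet removal for the steps of TOs and their difference, were chosen after seeing the data.

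Same-numbered TO and testis libraries share only a number: the correlation of their deviations from the group means lay between -0.0451 and 0.264 over the stages. With the replicate block, 26 differences within germ stages were called in place of 22 and 15 within somatic types in place of 13. Scaling moved the balance of calls, so that 65.8% of genes called at the testis step into elongating spermatids were higher with TMM and 14.4% with total UMIs. At the step into round spermatids these shares were 76.4% and 49.9%, at the testis step into pachytene 51.8% and 33.8%, and at the TO step into pachytene 59.2% and 82.3%. TO sums from pachytene on hold 10 to 55 cells a library, which limits their precision.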
